A study of Homo sapiens with 12 samples.

Results

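The genes described here encode the stress kinase ZAK (MAP3K20), 4 kinases that can relay its signal (MAP2K3, MAP2K4, MAP2K6 and MAP2K7), 4 p38 and JNK kinases (MAPK13, MAPK14, MAPK8 and MAPK9) and MAPKAPK2, a kinase activated by p38. These 10 genes were chosen by name from the 58735 genes of the count table and not by a cut on their values. Earlier results of these data were known when they were chosen. RNA was sequenced from K562, an established human erythroleukemia line with the BCR-ABL1 fusion, in which hemin induces hemoglobin, so every comparison was made within 1 line. The 12 libraries formed 4 groups of 3 biological replicates, namely mock DMSO and hemin DMSO without the drug, and mock nilotinib and hemin nilotinib with it. Nilotinib, a tyrosine kinase inhibitor whose target in leukemia is BCR-ABL1, was given at 0.1 µM for 24 h before hemin. DMSO was its vehicle, and hemin was given at 50 µM for 24 h. The methods put the collection of mock cells at the start of the hemin step, and library names carry 0 for mock and 24 for hemin. Mock and hemin libraries would then differ in culture time and in time since nilotinib was given. The scheme of the experiment instead draws all samples as collected at its end.

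ZAK is a kinase of the MAP3K level that senses ribosomes that stall or collide. It phosphorylates MAP2K kinases, of which MAP2K3 and MAP2K6 act on p38, MAP2K7 acts on JNK, and MAP2K4 acts on both. Active p38 phosphorylates MAPKAPK2 and transcription factors, JNK phosphorylates JUN and related factors, and the study asked about a route from ZAK and p38 to the inflammasome sensor NLRP1 and the erythroid factor GATA1. These steps run through phosphorylation, whereas the libraries measured only RNA, so the values below are transcript levels and not kinase activity. In RNA from a whole culture, fewer cells of a type and less RNA per cell cannot be told apart.

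The libraries held 33457078 to 50506990 counts. Levels are CPM (counts per 1000000 counts of the library, after the edgeR factors for library composition), and differences are log2 fold changes from edgeR's quasi-likelihood test on the counts, adjusted by Benjamini-Hochberg over 20821 genes, with a threshold of 0.05. The 5 erythroid markers GATA1, TAL1, LMO2, HBG1 and HBG2 were present in every group. All 5 were higher with nilotinib under hemin, while with hemin alone 2 were higher and 3 (GATA1, TAL1 and LMO2) lower. Of all tested genes, 32.4% were higher and 31.8% lower with nilotinib under hemin, and 25.7% higher and 27.8% lower with hemin alone. Of 7 markers of other cells, 5 were tested, of which 0 were higher and 3 lower with nilotinib under hemin, and 3 higher and 1 lower with hemin alone. Group means of the T cell gene CD3E and the B cell genes CD79A and MS4A1 were 0 to 0.410 CPM, those of EPCAM, COL1A1 and PECAM1 were 32.6 to 63.1, 8.69 to 22.4 and 4.001 to 15.2 CPM, and the monocyte gene CD14 had 9.40 CPM in hemin DMSO against 0.497 CPM in mock DMSO. Their part in the results was not tested. Of the 10 kinase genes, 9 had enough counts for the test. MAP2K6, a p38 activator, had counts of 1, 2 and 4 in mock DMSO and 0 in the other 9 libraries, where a count of 0 allows up to 0.0957 CPM.

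In cells given hemin, nilotinib raised the transcripts of ZAK and of p38α (MAPK14) and lowered those of MAPKAPK2, and MAPK14 showed the largest difference of the 9 genes, at 4.72-fold. MAP2K3 and MAP2K7 also rose, and MAP2K4 fell. Thus 6 of the 9 tested genes passed the threshold, 4 higher (beside 32.4% of all tested genes) and 2 lower (31.8%), and together they stand beside 64.2% of all tested genes. Without hemin, nilotinib raised MAP3K20, MAP2K3 and MAPK14 and lowered MAPKAPK2, which is 3 higher (20.7% of all genes) and 1 lower (21.8%), or 4 of 9 beside 42.5% of all genes. Hemin without nilotinib raised MAP2K3 and MAP2K4 and lowered MAPK9 and MAPK14, 2 each way (25.7% of all genes higher and 27.8% lower) and again 4 of 9 beside 53.6%. In the presence of nilotinib, hemin changed none of the 9 genes by edgeR's test or by DESeq2, beside 5.80% of all genes by edgeR (3.52% higher and 2.28% lower). By edgeR, 1 of the 9 genes, MAPK8, then had an unadjusted quasi-likelihood p under 0.05 (0.0147). The shares of called kinase genes lie near or below those of all genes, so the counts are not results about the kinases as a group, and single genes are described below.

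**Figure D1:**
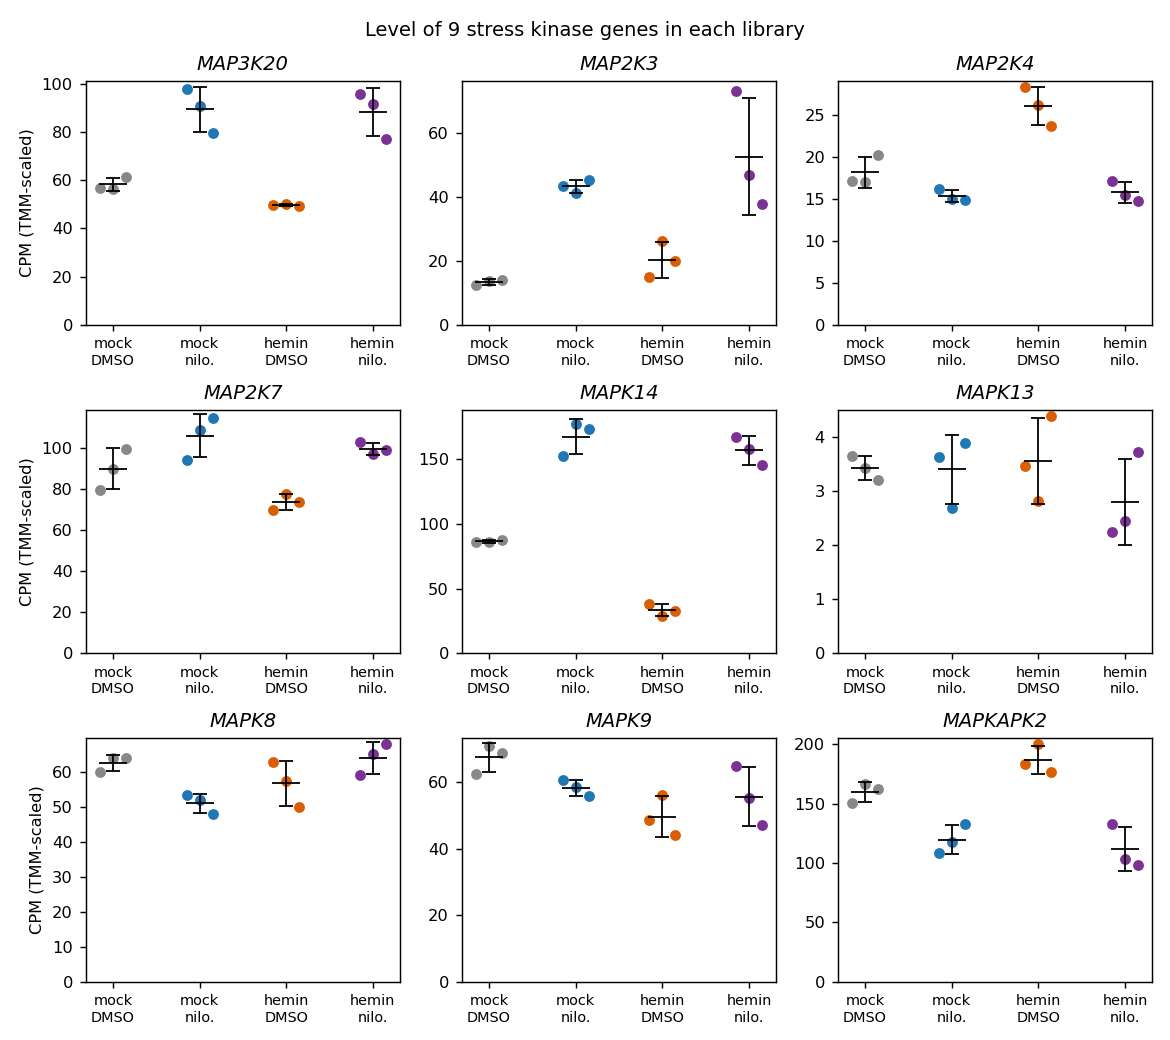
Levels of the 9 tested stress kinase genes, in CPM (vertical axes, each from 0) in the 4 conditions (horizontal axes). Points are libraries, horizontal marks are means and bars are SD (n = 3). MAPK14 lies at 145 to 177 CPM in the 6 nilotinib libraries and at 28.9 to 38.4 CPM in hemin DMSO, while MAPK13 stays under 4.39 CPM in all 12 libraries.

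Among the promoters of these genes, those of MAP2K3 and MAPK14 are shown because both transcripts rose with nilotinib in both backgrounds. MAP3K20 also did, but its RefSeq window lies past its GENCODE start and is not shown. The sequences are from RefSeq (GRCh38.p14), run 5′ to 3′ on the plus strand and end 30 bases past the gene start of GENCODE 29. They lie at chr17:21284461-21284701 for MAP2K3 and chr6:36027558-36027706 for MAPK14, and capitals mark matches to the CCAAT box or to the AP-1 element TGACTCA on either strand.
MAP2K3: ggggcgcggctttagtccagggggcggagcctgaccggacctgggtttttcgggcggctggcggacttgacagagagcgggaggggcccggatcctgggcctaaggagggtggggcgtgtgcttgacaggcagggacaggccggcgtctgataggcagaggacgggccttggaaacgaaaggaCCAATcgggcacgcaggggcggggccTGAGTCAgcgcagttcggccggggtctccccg
MAPK14: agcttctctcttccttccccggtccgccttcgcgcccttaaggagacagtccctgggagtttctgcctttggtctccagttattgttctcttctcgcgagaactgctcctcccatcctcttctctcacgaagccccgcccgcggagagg
In the 250 bases before the RefSeq start, which 9 of the 10 genes had (MAPKAPK2 was not matched), the AP-1 element lay in MAP2K3 alone and in 4.16% of 27305 promoters. The windows of MAP3K20 and MAPK13 lie past the GENCODE starts of these genes and were counted among the 9. CCAAT lay in MAP2K3, MAP2K7, MAPK9 and MAPK14, where the MAPK14 match falls beyond the stretch shown, and in 33.04% of promoters. The element TGACGTCA of ATF and CREB factors lay in none of the 9, beside 1.77% of promoters. The GATA element AGATAA lay in MAP2K6 (9.37% of promoters) and TGATAA in none of the 9 (6.89% of promoters), whereas the GC box GGGCGG lay in all 9 beside 42.3% of promoters. These matches describe letters only.

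MAP3K20 (chromosome 2, 173075435 to 173268010, GRCh38), which encodes ZAK, had 56.9, 56.3 and 61.5 CPM in the mock DMSO libraries. Nilotinib alone gave 98.0, 90.6 and 79.6 CPM. With hemin, the DMSO libraries had 49.7, 50.3 and 49.5 CPM and the nilotinib libraries 95.8, 91.8 and 77.1 CPM. Every nilotinib library was above every DMSO library, with or without hemin. The rise was 1.77-fold with hemin (log2 fold change 0.82 ± 0.12 SE, edgeR adjusted p = 2.34e-05) and 1.54-fold without (0.62 ± 0.12, adjusted p = 0.000665). The difference between these effects did not pass the test (0.20 ± 0.17, edgeR adjusted p = 0.395), and its 95% interval was -0.16 to 0.57. Hemin alone left all 3 libraries below the mock DMSO libraries, by a log2 fold change of -0.22 that did not pass (edgeR adjusted p = 0.133) and that passed at -0.46 when libraries were scaled by their totals only. Counts per gene do not separate the ZAKα and ZAKβ isoforms, and 3.09% of the exon length of MAP3K20 overlaps the antisense gene MAP3K20-AS1.

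Among the MAP2K kinases, MAP2K3 (chromosome 17, 21284672 to 21315240), an activator of p38, showed the largest rise with nilotinib. It stood at 12.4, 13.8 and 14.0 CPM in mock DMSO and at 43.6, 41.2 and 45.4 CPM in mock nilotinib. In hemin DMSO it stood at 15.0, 26.3 and 20.01 CPM, and in hemin nilotinib at 73.4, 46.9 and 37.9 CPM. The groups given nilotinib did not overlap those given DMSO, and the replicates spread more widely in the hemin groups than in the mock groups. Nilotinib raised MAP2K3 by 3.23-fold without hemin (log2 fold change 1.69 ± 0.22 SE, edgeR adjusted p = 1.46e-05) and by 2.58-fold with it (1.37 ± 0.22, adjusted p = 4.99e-05). The rise with hemin alone (0.60 ± 0.22, edgeR adjusted p = 0.0284) did not pass without any 1 of 5 of the 6 libraries (adjusted p up to 0.164, without hemin DMSO replicate 2, where the value was 0.39). That call was also lost with library totals only (0.36, edgeR adjusted p = 0.150). With limma it was lost on log2(FPKM + 1) (0.49, adjusted p = 0.0749) and log2(FPKM + 0.1) (0.58, adjusted p = 0.0508).

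MAP2K4 (chromosome 17, 12020824 to 12143830), which acts on both p38 and JNK, moved the other way. Its levels were 17.1, 17.1 and 20.3 CPM in mock DMSO, and 16.2, 15.0 and 14.8 CPM in mock nilotinib. Hemin DMSO libraries had 28.3, 26.2 and 23.8 CPM, above every library of the other 3 groups, and hemin nilotinib libraries had 17.1, 15.5 and 14.7 CPM. With hemin, MAP2K4 was 1.65-fold lower in nilotinib than in DMSO (-0.73 ± 0.14 SE, edgeR adjusted p = 0.000292). Hemin alone raised it by 1.44-fold (0.52 ± 0.14, edgeR adjusted p = 0.00496), a call that was lost without mock DMSO replicate 1 (0.41, adjusted p = 0.0581). It was also lost with library totals only (0.28, edgeR adjusted p = 0.0883) and with all genes of at least 1 count (0.45, adjusted p = 0.0528).

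MAP2K7 (chromosome 19, 7903843 to 7914478), the activator of JNK, had 79.6, 89.9 and 99.6 CPM in mock DMSO and 94.2, 109 and 115 CPM in mock nilotinib, and these groups overlapped. In hemin DMSO it had 69.5, 77.5 and 73.8 CPM, and in hemin nilotinib 103, 97.0 and 98.9 CPM, which did not overlap. The rise with nilotinib under hemin was 1.35-fold (0.44 ± 0.12 SE, edgeR adjusted p = 0.00499). Without hemin, the difference did not pass (0.24, edgeR adjusted p = 0.124), but it passed with upper-quartile factors (0.35, adjusted p = 0.0203). The fall with hemin alone missed the threshold (-0.29, edgeR adjusted p = 0.0565) and passed without mock DMSO replicate 1 (-0.43, adjusted p = 0.0153), with library totals only (-0.52, adjusted p = 0.000702) or with the replicate number as a block (-0.28, adjusted p = 0.0453). Of its exon length, 8.51% overlaps the opposite-strand gene AC010336.4, and the sources used here do not say whether counting used strand.

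MAPK14 (chromosome 6, 36027677 to 36111236), which encodes p38α, had the largest difference of the 9 genes both for nilotinib with hemin and for hemin alone. It stood at 86.1, 85.6 and 87.7 CPM in mock DMSO. Hemin brought it to 38.4, 28.9 and 32.3 CPM, and nilotinib to 152, 177 and 173 CPM without hemin and 167, 158 and 145 CPM with it. Thus hemin DMSO was below and both nilotinib groups were above every mock DMSO library, and the 2 nilotinib groups overlapped. The fall with hemin alone was 2.60-fold (log2 fold change -1.38 ± 0.13 SE, edgeR adjusted p = 3.49e-07). The rise with nilotinib was 1.94-fold without hemin (0.95 ± 0.13, edgeR adjusted p = 1.56e-05) and 4.72-fold with it (2.24 ± 0.13, adjusted p = 1.04e-09). The difference between the effects of nilotinib with and without hemin was 1.28 ± 0.18 on the log2 scale (edgeR adjusted p = 9.44e-05). These calls held in all other settings tried and without any 1 library. With nilotinib present, the difference made by hemin was -0.10, with a 95% interval of -0.36 to 0.17.

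MAPK13 (chromosome 6, 36127809 to 36144524), the other p38 gene among the 10, was the lowest of the 9 tested genes, with 78 to 203 counts per library. Its group means were 3.43 ± 0.22 CPM in mock DMSO, 3.40 ± 0.64 in mock nilotinib, 3.55 ± 0.79 in hemin DMSO and 2.801 ± 0.799 in hemin nilotinib (SD, n = 3). All groups overlapped. No comparison passed. The 95% interval of nilotinib with hemin ran from -0.89 to 0.21 on the log2 scale, and that of the difference between the effects of nilotinib with and without hemin from -1.10 to 0.44. The remaining p38 genes, MAPK11 and MAPK12, were measured as well. MAPK12 rose with nilotinib under hemin (0.89 ± 0.14 SE, edgeR adjusted p = 5.68e-05), from 34.1, 34.8 and 40.1 CPM to 72.1, 58.1 and 71.8 CPM, and fell with hemin alone (-0.62, adjusted p = 0.00190). MAPK11 fell with hemin alone (-0.71, edgeR adjusted p = 0.00534) and had a log2 fold change of 0.03 with nilotinib under hemin, which took either sign in other settings. Shares between genes depend on the gene lengths used, which need not be those of the transcripts present. Per length, MAPK14 made up 52.9 ± 1.26% of the total of the 4 p38 genes in mock DMSO and 39.7 ± 3.21% in hemin DMSO. Its share was 67.7 ± 5.67% in mock nilotinib and 68.4 ± 2.74% in hemin nilotinib (SD, n = 3), so that the 3 DMSO libraries lay below the nilotinib libraries in each background.

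Neither JNK gene among the 10 passed for nilotinib, with or without hemin, in the main edgeR fit. MAPK8 (chromosome 10, 48306639 to 48439360), which encodes JNK1, stood at 60.1, 64.1 and 64.1 CPM in mock DMSO and 53.4, 51.9 and 48.1 CPM in mock nilotinib. It stood at 63.0, 57.5 and 50.1 CPM in hemin DMSO and 59.2, 65.2 and 68.2 CPM in hemin nilotinib. The mock groups did not overlap and the hemin groups did. The log2 fold change of nilotinib was -0.29 without hemin (edgeR adjusted p = 0.0584) and 0.17 with it (adjusted p = 0.212), and neither passed. The first passed with library totals only, with at least 10 counts in every library and with the compared libraries alone (edgeR adjusted p = 0.0403, 0.0492 and 0.00982), and the second with library totals only (0.36, adjusted p = 0.0157). The difference between them passed, at 0.47 ± 0.17 SE (edgeR adjusted p = 0.0463). That call was lost in 9 of the 12 runs that left out 1 library, with adjusted p up to 0.129 (without hemin DMSO replicate 3, 0.37), and in 6 of 9 other settings.

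MAPK9 (chromosome 5, 180233143 to 180292099), which encodes JNK2, stood at 62.5, 71.0 and 68.9 CPM in mock DMSO and 48.5, 56.3 and 44.1 CPM in hemin DMSO, which did not overlap. The fall was 1.36-fold (-0.44 ± 0.14 SE, edgeR adjusted p = 0.0119) and was lost without hemin DMSO replicate 3 (-0.35, adjusted p = 0.0729). The hemin nilotinib libraries had 64.8, 55.1 and 47.0 CPM, within or above the range of hemin DMSO. The mock nilotinib libraries had 60.7, 58.4 and 55.8 CPM, below mock DMSO. The log2 fold change of nilotinib was -0.21 without hemin (edgeR adjusted p = 0.228) and 0.17 with it (adjusted p = 0.300). The latter passed with library totals only (0.35, edgeR adjusted p = 0.0196). The difference between these effects did not pass (0.38, edgeR adjusted p = 0.154). MAPK10, the remaining JNK gene, was at 0 to 0.456 CPM. Per length, MAPK8 made up 46.3 ± 0.77% of the JNK genes in mock DMSO, 44.8 ± 0.36% in mock nilotinib, 51.5 ± 2.99% in hemin DMSO and 51.8 ± 5.75% in hemin nilotinib (SD, n = 3).

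MAPKAPK2 (chromosome 1, 206684944 to 206734283), which carries the p38 signal to RNA-binding proteins and HSPB1, moved against MAPK14. It stood at 150, 166 and 162 CPM in mock DMSO and 108, 118 and 133 CPM in mock nilotinib. Hemin DMSO libraries had 183, 200 and 177 CPM, and hemin nilotinib libraries 133, 103 and 98.6 CPM. Every nilotinib library was below every DMSO library of its background. Nilotinib made it 1.67-fold lower with hemin (-0.74 ± 0.14 SE, edgeR adjusted p = 0.000169) and 1.33-fold lower without (-0.41 ± 0.13, adjusted p = 0.0208). The call without hemin was lost when either mock DMSO replicate 2 or 3 or mock nilotinib replicate 1 or 2 was left out (adjusted p 0.0550 to 0.0904). It was also lost with upper-quartile factors (-0.30, edgeR adjusted p = 0.0543). The hemin DMSO libraries lay above the mock DMSO libraries, but the difference did not pass (0.23, edgeR adjusted p = 0.167). That difference was -0.02 with library totals only and passed with upper-quartile factors (0.35, edgeR adjusted p = 0.0241). Per length, the ratio of MAPK14 to MAPKAPK2 was 0.332 ± 0.0181 in mock DMSO and 0.110 ± 0.0199 in hemin DMSO. It was 0.858 ± 0.0616 in mock nilotinib and 0.868 ± 0.0881 in hemin nilotinib (SD, n = 3), with DMSO libraries at 0.351 or below and nilotinib libraries at 0.769 or above.

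**Figure D2:**
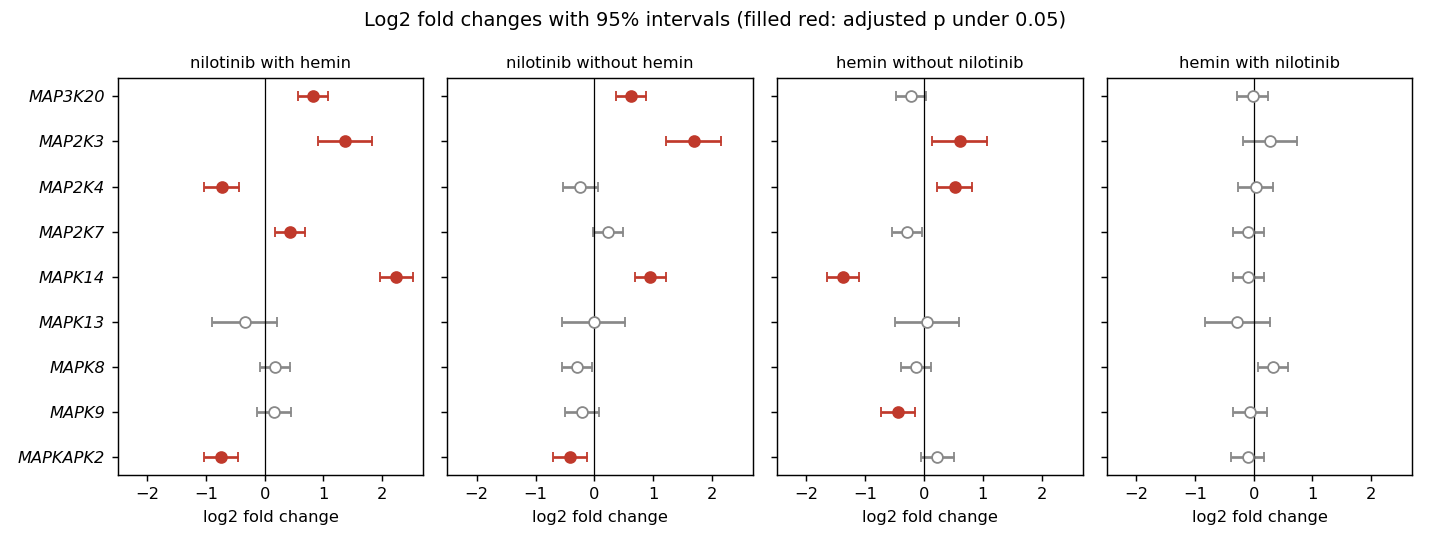
Log2 fold changes (horizontal axes) of the 9 tested genes in 4 comparisons, with 95% intervals from edgeR. Filled red points passed an adjusted p of 0.05 and open grey points did not. The fold changes of MAPK14 were 2.24, 0.95, -1.38 and -0.10 from left to right, and no gene passed for hemin with nilotinib.

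Libraries of the compared groups did not overlap in 6 of the 9 genes for nilotinib with hemin (63.5% of all tested genes), in 7 for nilotinib without hemin (61.0%) and in 7 for hemin without nilotinib (62.7%). They did not overlap in 1, MAPK8, for hemin with nilotinib (23.3%). The difference between the effects of nilotinib with and without hemin passed for 2 genes, MAPK8 and MAPK14, both higher (17.1% of all genes), beside 30.1% of all genes in either direction.

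Levels of different genes can be compared only per length. On the scale of CPM per kilobase of gene length, MAPKAPK2 came first in every group, at 38.01 ± 1.995 in mock DMSO, 28.5 ± 2.997 in mock nilotinib, 44.5 ± 2.85 in hemin DMSO and 26.6 ± 4.46 in hemin nilotinib (SD, n = 3). MAPK14 was the third in mock DMSO (12.6 ± 0.16), the sixth in hemin DMSO (4.84 ± 0.70) and the second in both nilotinib groups (24.4 ± 1.94 and 22.8 ± 1.60). In both nilotinib groups its libraries overlapped those of MAPKAPK2 above it. MAP2K7 was the second in the DMSO groups and the third in the nilotinib groups.

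MAP2K3 was the seventh in mock DMSO (3.55 ± 0.23), where its libraries overlapped those of MAP2K4, and on rank 4 in mock nilotinib (11.5 ± 0.56) and hemin nilotinib (13.9 ± 4.87). The ratio of MAP2K3 to MAP2K4 was 1.12 ± 0.09 in mock DMSO and 1.19 ± 0.36 in hemin DMSO, against 4.27 ± 0.30 in mock nilotinib and 4.98 ± 1.34 in hemin nilotinib (SD, n = 3), with no overlap between DMSO and nilotinib libraries. In hemin DMSO, 5 genes (MAPK8, MAPK9, MAP2K3, MAPK14 and MAP2K4) lay between 4.57 and 5.88 CPM per kilobase, and each overlapped its neighbour. MAP3K20 was the sixth in 3 groups and the eighth in hemin DMSO, MAPK13 was the ninth in every group and MAP2K6 was last. Ranks by the deposited FPKM were the same in every group. FPKM rests on the same counts and gene lengths, so this sameness does not test the order.

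**Figure D3:**
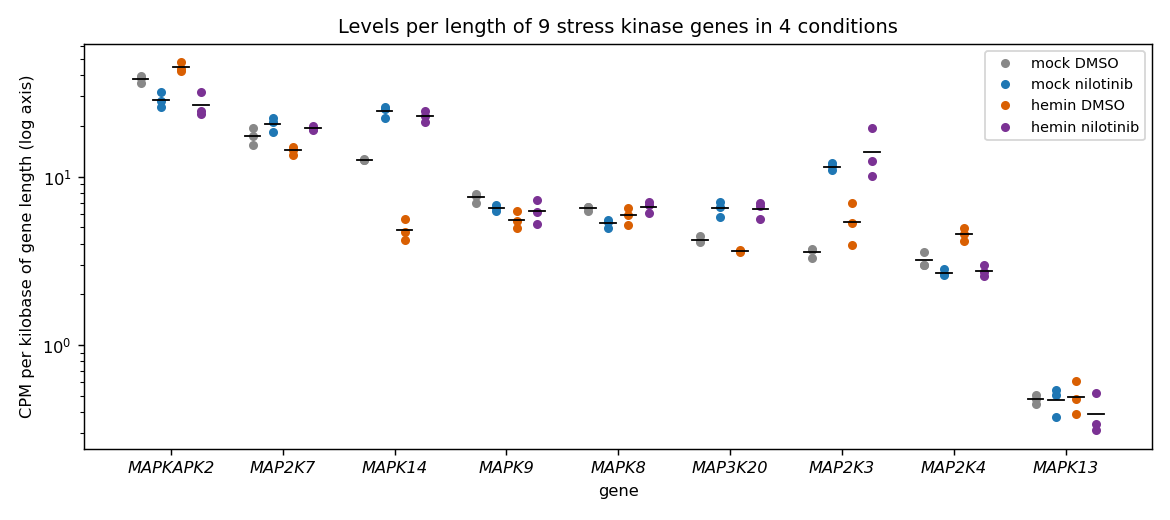
Levels per length of the 9 tested genes, in CPM per kilobase of gene length on a log axis, by gene and condition. Points are libraries and black marks are group means. MAPKAPK2 is highest in all conditions, MAPK13 is lowest at 0.389 to 0.494 on average, and MAPK14 runs from 4.84 in hemin DMSO to 24.4 in mock nilotinib.

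For 3 of the kinases, the most similar genes were sought among genes of at least 10 CPM, by the root-mean-square (RMS) difference of centred log2 CPM over the 12 libraries. MAPK14 was closest to SLC35E2A (0.12), DYRK3 (0.13) and ATP7B (0.15), with its own RMS deviation at 0.94. Of 9451 genes, 4059 lay closer to MAPK14 than that deviation. Genes with small changes in the same direction also meet this cut, so the count does not measure how many share its pattern. ATP7B, a copper transporter, had mean levels of 59.0 ± 4.69 CPM in mock DMSO, 105 ± 5.17 in mock nilotinib, 19.1 ± 1.82 in hemin DMSO and 102 ± 17.8 in hemin nilotinib (SD, n = 3). MAP3K20 was closest to NAP1L4 (0.09), NFE2L3 (0.11) and MMS22L (0.11), with its own deviation at 0.38 and 2189 of 9451 genes closer than that. MAPK13 was closest to UVSSA (0.13), HOXC9 (0.16) and ETFDH (0.17), but its own deviation was only 0.24, so its neighbours are genes that varied little. For MAPK13, 106 of 9452 genes lay closer than its own deviation.

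Upstream of the MAP2K kinases stand other MAP3K-level kinases, of which 17 were measured. With nilotinib under hemin, 5 rose and 9 fell (64.2% of all tested genes passed), and with hemin alone, 7 rose and 6 fell (53.6% of all tested genes). MAP3K15, a relative of the apoptosis signal kinase MAP3K5, had 0.368, 0.479 and 0.634 CPM in hemin DMSO and 10.5, 18.7 and 22.5 CPM in hemin nilotinib. Its rise was 34.3-fold (5.10 ± 0.45 SE, edgeR adjusted p = 8.26e-08). MAP3K12, a kinase upstream of JNK, stood at 72.8, 63.7 and 77.5 CPM in hemin DMSO and 5.63, 10.2 and 24.1 CPM in hemin nilotinib (-2.41 ± 0.34, edgeR adjusted p = 1.47e-05), and in mock DMSO at 7.56, 8.16 and 8.86 CPM. MAP3K9 also rose with hemin alone (1.58, edgeR adjusted p = 5.55e-05) and was lower with nilotinib under hemin (-2.06, adjusted p = 2.84e-06).

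Of 11 scaffolds and activating partners, 10 were tested, and 6 rose and 2 fell with hemin alone, beside 53.6% of all tested genes, whereas 3 rose and 4 fell with nilotinib under hemin, beside 64.2%. GADD45B, which binds and activates MAP3K4, had 1.31, 1.57 and 0.942 CPM in mock DMSO and 32.1, 113 and 51.7 CPM in hemin DMSO. With hemin and nilotinib it had 0.690, 1.18 and 2.81 CPM, which overlapped mock DMSO. The rise with hemin was 51.5-fold (5.69 ± 0.50 SE, edgeR adjusted p = 2.00e-07), and the level was 41.2-fold lower with nilotinib under hemin (-5.37 ± 0.49, adjusted p = 1.32e-07). The JNK scaffolds MAPK8IP1 and MAPK8IP2 rose with hemin alone by log2 fold changes of 1.59 and 2.39 (edgeR adjusted p = 4.80e-06 and 7.82e-06) and were lower with nilotinib under hemin by -2.01 and -2.30 (adjusted p = 2.30e-07 and 6.70e-06). GADD45G rose with hemin alone (3.25, edgeR adjusted p = 5.63e-06) from under 0.7 CPM, and its log2 fold change was -0.14 with nilotinib under hemin, of either sign in other settings.

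Phosphatases that act on p38 and JNK moved mostly down with nilotinib under hemin and up with hemin alone. This list, like the other pathway lists, was chosen with earlier results of these data known. Of 9 tested, 8 were lower (31.8% of all tested genes) and 1 was higher (32.4%) with nilotinib under hemin, and their median difference was -1.54 on the log2 scale, beside 0.02 over all tested genes. With hemin alone, 6 were higher (25.7% of all tested genes) and 2 lower (27.8%), with a median of 1.08 beside -0.05. DUSP1, which dephosphorylates p38 and JNK, stood at 12.5, 14.5 and 14.4 CPM in mock DMSO and 195, 249 and 220 CPM in hemin DMSO. It stood at 35.0, 31.3 and 31.5 CPM in mock nilotinib and 54.1, 55.2 and 63.8 CPM in hemin nilotinib. No pair of these groups overlapped. DUSP1 rose 16.03-fold with hemin alone (4.003 ± 0.143 SE, edgeR adjusted p = 6.37e-11), and was 3.84-fold lower with nilotinib under hemin (-1.94 ± 0.13, adjusted p = 4.45e-09).

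DUSP8 rose 10.6-fold with hemin alone (edgeR adjusted p = 1.41e-06) and was 11.7-fold lower with nilotinib under hemin (adjusted p = 4.59e-07). DUSP10 rose 3.69-fold with hemin alone (edgeR adjusted p = 2.28e-06) and was 7.53-fold lower with nilotinib under hemin (adjusted p = 1.73e-08). PTPN7, a hematopoietic tyrosine phosphatase, differed from these. It had 73.1, 72.2 and 63.2 CPM in mock DMSO, 18.1, 21.5 and 17.0 CPM in hemin DMSO and 10.6 to 15.2 CPM in the 6 nilotinib libraries. Hemin alone made it 3.68-fold lower (-1.88 ± 0.14 SE, edgeR adjusted p = 4.02e-08).

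Besides MAPKAPK2, 6 kinases activated by p38 were tested. With nilotinib under hemin, 2 rose and 2 fell, beside 64.2% of all tested genes. With hemin alone, 1 rose and 4 fell, or 1 and 2 with upper-quartile scaling, beside 53.6% of all tested genes. RPS6KA4, the nuclear kinase MSK2, rose 2.10-fold with nilotinib under hemin (1.07 ± 0.12 SE, edgeR adjusted p = 1.62e-06), from 22.3, 24.6 and 24.3 CPM to 54.8, 47.2 and 47.4 CPM. MKNK2, which phosphorylates eIF4E, was 2.58-fold lower (-1.37 ± 0.17, edgeR adjusted p = 4.25e-06), at 195 to 276 CPM against 515 to 736 CPM.

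Of 17 targets of p38 and JNK, namely transcription factors, RNA-binding proteins and HSPB1, 11 rose (25.7% of all tested genes) and 2 fell (27.8%) with hemin alone. Their median difference was 0.97 on the log2 scale, beside -0.05 over all genes. With nilotinib under hemin, 1 rose (32.4% of all tested genes) and 10 fell (31.8%), with a median of -0.99 beside 0.02. HSPB1, the small heat-shock protein phosphorylated by MAPKAPK2, stood at 154, 156 and 155 CPM in mock DMSO and 7394, 10287 and 5986 CPM in hemin DMSO. In hemin nilotinib it stood at 368, 660 and 860 CPM, above mock DMSO and below hemin DMSO without overlap. Its rise with hemin alone was 50.9-fold (5.67 ± 0.34 SE, edgeR adjusted p = 7.15e-09), and it was 12.5-fold lower with nilotinib under hemin (-3.65 ± 0.31, adjusted p = 4.85e-08).

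JUN, the transcription factor that gives JNK its name, had 75.3, 66.1 and 59.4 CPM in mock DMSO, 590, 917 and 754 CPM in hemin DMSO and 38.1, 82.9 and 128 CPM in hemin nilotinib. It rose 11.3-fold with hemin alone (edgeR adjusted p = 2.42e-07) and was 9.08-fold lower with nilotinib under hemin (adjusted p = 2.34e-07). ATF3 rose 10.9-fold with hemin alone (edgeR adjusted p = 2.15e-06) and was 13.0-fold lower with nilotinib under hemin (adjusted p = 5.49e-07). MEF2D, a factor phosphorylated by p38, rose 3.95-fold and was 4.38-fold lower in the same comparisons (edgeR adjusted p = 3.81e-08 and 6.42e-09). ZFP36, an RNA-binding protein phosphorylated by MAPKAPK2, rose 10.6-fold and was 3.91-fold lower (edgeR adjusted p = 7.14e-07 and 5.45e-05).

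**Figure D4:**
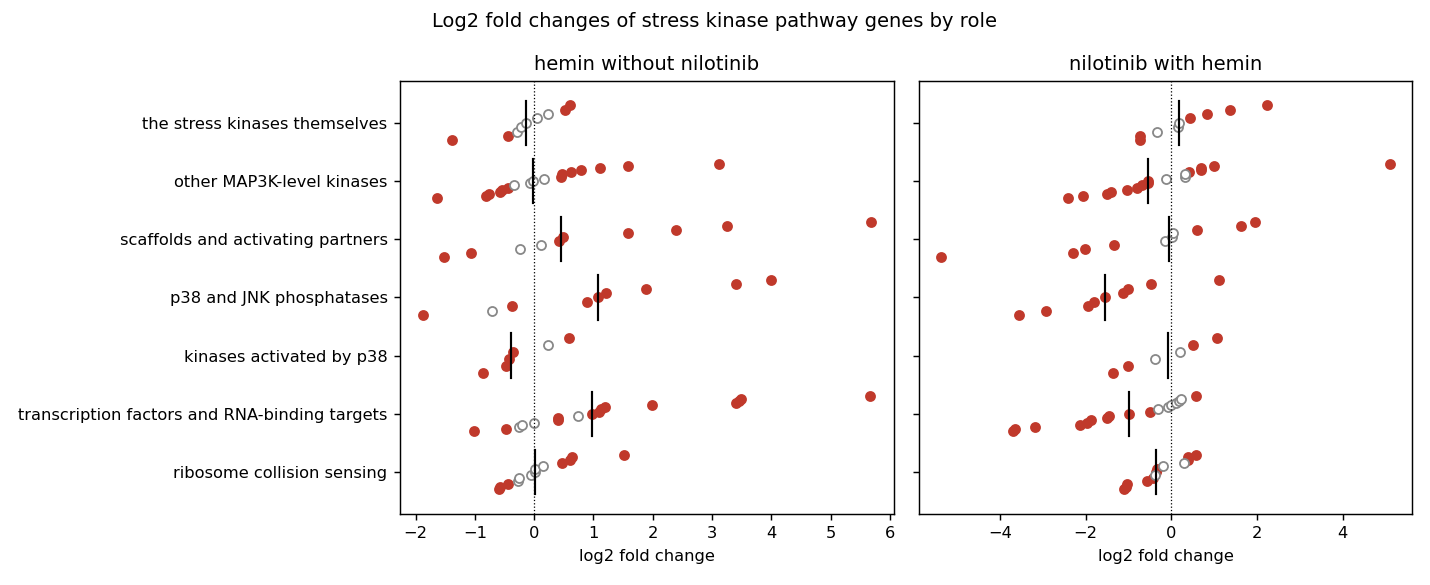
Log2 fold changes (horizontal axes) of the tested genes of each pathway list (rows) for hemin without nilotinib (left) and nilotinib with hemin (right). Filled red points passed an edgeR adjusted p of 0.05, open grey points did not, and black lines are medians. The phosphatases have medians of 1.08 and -1.54, and the kinases of this report -0.14 and 0.17.

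Ribosome collision factors act beside ZAK. Of 13 genes of this list, 3 rose and 7 fell with nilotinib under hemin, beside 64.2% of all tested genes, and 4 rose and 3 fell with hemin alone, beside 53.6%. ASCC1, of a complex that takes collided ribosomes apart, was 2.15-fold lower with nilotinib under hemin (-1.10 ± 0.13 SE, edgeR adjusted p = 1.71e-06), at 24.6 to 27.3 CPM against 50.8 to 63.0 CPM. PELO, which rescues stalled ribosomes, rose 2.86-fold with hemin alone (1.51 ± 0.16, edgeR adjusted p = 1.67e-06) and was 2.09-fold lower with nilotinib under hemin (-1.06 ± 0.16, adjusted p = 2.85e-05).

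Of the genes named downstream in the study's question, NLRP1 had 156, 136 and 140 CPM in mock DMSO, 206, 205 and 260 CPM in mock nilotinib, 284, 168 and 236 CPM in hemin DMSO and 236, 314 and 562.4 CPM in hemin nilotinib. Hemin DMSO and hemin nilotinib overlapped. The log2 fold change of NLRP1 with nilotinib under hemin was 0.69 ± 0.25 SE (edgeR adjusted p = 0.0225). That call was lost without hemin nilotinib replicate 3 (0.28, adjusted p = 0.223) or hemin DMSO replicate 2 (0.51, adjusted p = 0.108). It was also lost with only the compared libraries (0.72, edgeR adjusted p = 0.0517). With limma it was lost on log2(FPKM + 1) (0.56, adjusted p = 0.0734) and log2(FPKM + 0.1) (0.59, adjusted p = 0.0667). With hemin alone, NLRP1 passed at 0.67. This call was lost in 5 runs that left out 1 library (edgeR adjusted p up to 0.138) and in 2 other settings. Transcripts of CASP1, the caspase of the inflammasome, reached at most 1 count in a library and were not tested. GATA1, the erythroid factor, had 268, 296 and 325 CPM in mock DMSO, 130, 186 and 158 CPM in hemin DMSO and 330, 307 and 315 CPM in hemin nilotinib. GATA1 fell 1.88-fold with hemin alone (-0.91 ± 0.14 SE, edgeR adjusted p = 5.52e-05) and was 2.01-fold higher with nilotinib under hemin (1.005 ± 0.141, adjusted p = 1.23e-05).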

How the data were processed

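RNA-seq of K562 cells gave 12 libraries in 4 groups of 3 biological replicates, grouped and numbered by the labels. The authors deposited raw gene counts, made by their sequencing service from 150-base paired-end NovaSeq reads on GRCh38.p12, and the aligner and counter are not given in the sources used here. The authors also deposited FPKM, scaled by size factors of the 12 libraries, which served only for ranks and alternatives. The submitters' processing notes name DESeq2 and DESeq.

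Counts were kept where filterByExpr passed them (count 10, total 15), normalized by TMM and fitted by the quasi-likelihood test of edgeR 4.0.16 in R 4.3.3 with 1 mean per group over the 12 libraries, and p were adjusted over 20821 genes by Benjamini-Hochberg. All p are two-sided, SE came from the fold change and its F value, and intervals are 95%. A count of 0 was taken to allow 3 counts. The 5 comparisons were nilotinib with and without hemin, hemin without and with nilotinib, and the interaction. For 3 against 3 libraries an exact permutation test cannot go below p = 0.1, so none was used for single values.

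The 10 genes and the pathway lists were chosen with earlier results of these data known. Of each list, the genes named were those with the 2 largest changes past the threshold in nilotinib with hemin and those past it with a log2 fold change over 2 in any comparison, plus MAPK10, MAPK11, MAPK12, NLRP1, CASP1 and GATA1. Similar genes were the 3 with the smallest RMS difference. Genes of other cell types are from a marker list. The result of 1 gene is not reported here.

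The alternatives were DESeq2 1.42.0, RLE, upper-quartile or no composition factors, a filter of 1 count in all, a filter of 10 counts in each of the libraries, limma-trend 3.58.1 on log2(FPKM + 1) and log2(FPKM + 0.1), a fit of only the compared libraries, a block for the replicate number, and omission of single libraries. For the pathway lists they were added after the data were seen. Deviations of same-numbered libraries correlated above 0.1 in all 3 pairs for nilotinib without hemin (0.172 to 0.239) and hemin with nilotinib (0.459 to 0.525), which meets the limit set for calling the numbers pairs. The fits reported have no block, and the block was run on each comparison as an alternative. No libraries of a group agreed within counting noise (chi-square per degree of freedom 13.7 to 252).

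Positions, exon overlaps and shared 150-base words came from GENCODE 29, in which all 58735 identifiers were found. No 150-base word of the 10 genes occurred in transcripts of other genes, and the pathway lists were not checked for this. Motifs were sought on both strands of 1 RefSeq promoter per symbol, and CCAAT and GGGCGG can overlap other motifs. The edgeR procedure was tested on simulated data. Figures were drawn with matplotlib 3.10.9 in Python 3.11.15.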

Additional observations from a re-analysis of the deposited data

Results flagged for a closer look

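The effect of nilotinib differed between cells with and without hemin in 2 of the 9 tested kinase genes, by the interaction term of the edgeR quasi-likelihood test. If mock cells were collected at the start of the hemin step, this term cannot tell hemin apart from culture time or time since nilotinib. For MAPK14, the log2 fold change with hemin was 1.28 above that without (adjusted p = 9.44e-05), and all 3 hemin DMSO libraries lay below all 3 mock DMSO libraries while the nilotinib groups overlapped. Values for MAPK14 ran from 1.19 to 1.39 when 1 library was left out and from 1.10 to 1.49 in the 9 other settings. For MAPK8, the difference was 0.47 (edgeR adjusted p = 0.0463), and it missed the threshold in most of the other runs. Groups of 3 libraries were not examined for single outlying libraries.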

How the results depend on the processing

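Of the log2 fold changes of the 9 kinase genes in the 5 comparisons, 410 values in other settings kept direction and side of the threshold, 14 passed only there, 12 were lost and 5 changed sign. When 1 library was left out, the counts were 293, 2, 20 and 9. Genes called numbered 6 for nilotinib with hemin and 0 for hemin with nilotinib in every run that left out 1 library. They numbered 3 to 4 for nilotinib without hemin and 1 to 2 for the interaction. For hemin without nilotinib they numbered 2 to 4 (2 without hemin DMSO replicate 3). The interaction lost MAPK8 in most of these runs and kept MAPK14 in all. Without hemin nilotinib replicate 3, the interaction called MAPK9 (0.53, edgeR adjusted p = 0.0444) in place of MAPK8. With library totals only, the interaction called MAPK9 (0.58, edgeR adjusted p = 0.0161) beside MAPK8 and MAPK14. The interaction count fell from 2 to 1 with RLE factors, with all genes of at least 1 count and with FPKM at either pseudocount. With DESeq2 and with upper-quartile factors, the interaction called MAPK14 and MAP2K4 (-0.54 and -0.61) and not MAPK8.

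Scaling by library totals only moved the median of all genes from 0.02 to 0.20 for nilotinib with hemin, from -0.05 to -0.29 for hemin without nilotinib and from 0.06 to 0.27 for the interaction. Of the genes called, the share higher went from 48.0% to 33.9% for hemin without nilotinib and from 56.7% to 73.3% for the interaction, and 5 of the kinase genes were then lower and 0 higher for hemin without nilotinib, and 6 higher and 2 lower for nilotinib with hemin. Sign changes were in values that had not passed. For hemin without nilotinib, MAPK13 was -0.18 with totals only, -0.023 with all genes of at least 1 count and -0.12 to 0.20 when 1 library was left out, and MAPKAPK2 was -0.015 with totals only. For nilotinib without hemin, MAPK13 was 0.10 with upper-quartile factors and -0.15 to 0.10 when 1 library was left out. For hemin with nilotinib, MAP3K20 was 0.0038 with at least 10 counts in every library, and leaving out 1 library gave -0.12 to 0.062 for MAP3K20, -0.036 to 0.46 for MAP2K3, -0.029 to 0.076 for MAP2K4 and -0.19 to 0.033 for MAPK9. For nilotinib with hemin, MAPK11 was -0.013 with DESeq2, -0.012 with RLE, -0.011 with FPKM + 1, -0.016 with FPKM + 0.1 and -0.090 to 0.11 when 1 library was left out, and GADD45G was 0.046 with totals only and -0.32 to 0.14 when 1 library was left out. The cause was not tested.

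With the replicate number as a block, 4 genes passed for nilotinib without hemin and 0 for hemin with nilotinib, the comparisons it pairs, as without the block. In the others the libraries share only a number (correlations of -0.131 to 0.250 for nilotinib with hemin and 0.0891 to 0.207 for hemin without nilotinib), and the block added MAP2K7 to hemin without nilotinib (4 to 5 genes). At 0 to 4 counts MAP2K6 was below what this depth can compare.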
